A study of Homo sapiens with 6 samples.

Results

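The 1182 regions described here were open in both untreated (control) libraries and in neither library of cells treated with the Zn2+ chelator TPA, once the lists of open chromatin had been set to equal length. They were selected on the control and TPA calls themselves. The lists give each open region a score, and the 18887 highest scoring regions on chromosomes 1 to 22 and X were kept per library. Kept regions that overlapped or touched, in whichever of the 6 libraries, were joined into 1, and a library counted as open at a merged region where at least 1 of its kept regions overlapped it. The rule picked 4.52% of the 26162 merged regions and 7.55% of the 15656 that were open in both controls. They are called control-only regions below, a name that covers only the control and TPA calls at equal list length. Of them, 901 were also open in both libraries of cells treated with ZnCl2. In the full lists, 1025 had a call in both TPA libraries.

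ATAC-seq was performed on MCF10A cells, an established non-tumorigenic human mammary epithelial line, with 2 libraries for each of 3 conditions. All cells were first held for 30 min in a phosphate-free buffered salt solution. For another 30 min they then received no treatment, 50 μM of the chelator tris(2-pyridylmethyl)amine (TPA) or 30 μM of ZnCl2. The 2 libraries of a condition are called biological replicates in the study's methods and technical replicates in its results, so the spread between them may be technical, and the line is a single source of cells.

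ATAC-seq reads accessible chromatin through Tn5 transposase, which inserts adapters where DNA is not wrapped in nucleosomes. Active promoters are the most regular sites of such DNA. Many of them lie in CpG islands, which are rich in G and C and carry the GC box bound by the zinc-finger factors of the SP and KLF families, while the CCAAT box is bound by NF-Y, a factor without zinc fingers. Zn2+ is a structural cofactor of the zinc fingers, and metallothioneins and the SLC30 and SLC39 transporters buffer it and move it across membranes.

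The upstream sequences of 6 genes with a control-only region over their start site show the base composition of these promoters. Each is the 250 bases before the start site in RefSeq, build GRCh38.p14, read 5′ to 3′ along the gene's strand, with capitals marking every GC box (GGGCGG on either strand). MACIR (chr5:103258513-103258762, plus strand) and ABRAXAS2 (chr10:124801569-124801818, plus strand) are shown because neither TPA library had a call there at any score, and FAM20C (chr7:192321-192570, plus strand) because its region was high in both controls. SLC30A4 (chr15:45522756-45523005, minus strand) is a zinc exporter gene, and TEAD3 (chr6:35497080-35497329, minus strand) and AXL (chr19:41218973-41219222, plus strand) belong to the YAP and TEAD pathway.
MACIR: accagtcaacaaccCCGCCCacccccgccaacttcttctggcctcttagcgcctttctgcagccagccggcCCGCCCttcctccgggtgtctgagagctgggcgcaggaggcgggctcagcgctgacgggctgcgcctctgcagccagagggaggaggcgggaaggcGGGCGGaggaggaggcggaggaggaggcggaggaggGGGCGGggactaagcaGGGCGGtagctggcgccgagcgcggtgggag
ABRAXAS2: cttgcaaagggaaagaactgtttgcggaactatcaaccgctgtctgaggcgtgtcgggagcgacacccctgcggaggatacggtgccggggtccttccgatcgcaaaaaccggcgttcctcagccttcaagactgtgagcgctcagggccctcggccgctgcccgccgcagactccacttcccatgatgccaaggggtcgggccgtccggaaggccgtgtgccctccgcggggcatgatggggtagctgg
FAM20C: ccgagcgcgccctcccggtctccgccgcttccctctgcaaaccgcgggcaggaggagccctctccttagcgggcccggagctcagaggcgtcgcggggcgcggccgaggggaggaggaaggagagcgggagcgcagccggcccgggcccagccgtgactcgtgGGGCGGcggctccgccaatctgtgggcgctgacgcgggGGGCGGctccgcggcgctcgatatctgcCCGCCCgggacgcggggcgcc
SLC30A4: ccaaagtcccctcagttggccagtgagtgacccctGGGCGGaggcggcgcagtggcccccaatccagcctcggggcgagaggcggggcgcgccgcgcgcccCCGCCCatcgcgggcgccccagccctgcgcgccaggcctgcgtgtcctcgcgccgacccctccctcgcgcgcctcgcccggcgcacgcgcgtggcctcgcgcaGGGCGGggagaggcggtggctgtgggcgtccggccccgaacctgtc
TEAD3: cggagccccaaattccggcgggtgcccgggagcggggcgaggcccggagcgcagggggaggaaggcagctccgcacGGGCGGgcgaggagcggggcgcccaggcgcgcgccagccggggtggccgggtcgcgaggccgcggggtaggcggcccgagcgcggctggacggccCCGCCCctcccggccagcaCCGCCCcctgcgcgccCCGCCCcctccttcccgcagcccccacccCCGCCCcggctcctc
AXL: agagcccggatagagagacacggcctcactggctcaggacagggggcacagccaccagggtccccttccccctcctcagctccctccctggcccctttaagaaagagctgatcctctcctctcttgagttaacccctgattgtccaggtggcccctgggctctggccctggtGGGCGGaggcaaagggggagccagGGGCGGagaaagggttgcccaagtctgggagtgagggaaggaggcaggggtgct

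MACIR and TEAD3 each held 5 GC boxes in these bases, FAM20C and SLC30A4 held 3, AXL held 2 and ABRAXAS2 held 0. A CCAAT box was found in FAM20C and SLC30A4 and not in the other 4. The GC content ran from 64.4% in AXL to 84% in TEAD3. CpG dinucleotides were frequent at FAM20C with 38, SLC30A4 and TEAD3 with 37 each, and rare at AXL with 4.

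The regions stood lower in the TPA lists, but few of them lacked a TPA call. Whether accessibility fell there with TPA was not tested, as the lists hold no read counts. In the full lists, before they were set to equal length, 1025 control-only regions (86.7%) still had a call in both TPA libraries. A further 26 had one in TPA replicate 1 only and 80 in TPA replicate 2 only. No call in either TPA library was left at 51 regions, which is 4.31% (exact binomial 95% interval 3.23 to 5.63%, for counting error only). The share depended on the libraries used to choose the regions: it was 16.3% when control replicate 1 was left out, 5.82% without control replicate 2, 7.13% without TPA replicate 1 and 10.6% without TPA replicate 2. What the regions share is therefore a lower position in the TPA lists, where position 1 is the highest score.

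Their median position was 13699 and 13980 in control replicates 1 and 2, and 25044 and 25557 in TPA replicates 1 and 2, with regions without a call placed last. In ZnCl2 replicates 1 and 2 it was 11714 and 11832. The 2 libraries of each condition thus lay close together, the TPA libraries after the controls as the rule requires, and both ZnCl2 libraries before both controls. The 14474 other regions open in both controls had median positions between 7674 and 8184 in all 6 libraries, so the control-only regions came from the lower part of the control lists. The 15656 regions open in both controls were ordered by the later of their 2 control positions and divided into 4 position classes of equal size. Class 4, the last, held 730 of the control-only regions, class 3 held 333, class 2 held 97 and class 1 held 22.

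**Figure D1:**
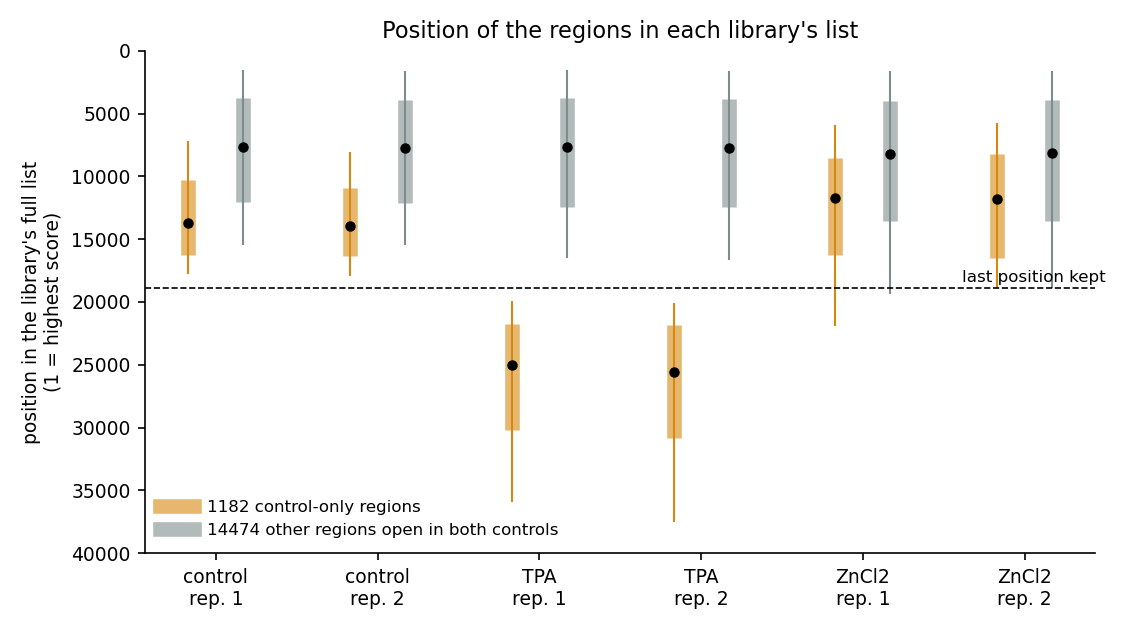
Position of regions in each library's full list (vertical axis, 1 is the highest score, regions without a call placed last) for the 1182 control-only regions and the 14474 other regions open in both controls. Dots are medians, boxes run from the 25th to the 75th percentile, thin lines from the 10th to the 90th, and the dashed line is the last position kept, so the control-only regions had to lie above it in both controls and below it in both TPA libraries.

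The step in position ranged from small to large. Over the 1131 regions with a TPA call, the step from the later control position to the earlier TPA position had a median of 8432 places, with 25% of them under 5105 and 25% over 12664. It was at least 10000 places at 456 regions (40.3%) and under 1000 at 29, and the smallest step was 82. Among all 1182, 216 regions (18.3%) reached position 20000 in at least 1 TPA list, just past the last kept position, and 1003 (84.9%) reached position 30000. The control-only regions nearest the limit stood at 18903 and 18897 in TPA replicates 1 and 2, and the nearest regions that a TPA call kept out stood at 18885 and 18886. Equal scores continued past the limit in 5 libraries, so that width and then chromosome order decided membership there.

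The regions were richer in G and C than the rest, a property that the rule did not use. No test was made here or for the shares that follow, since regions are not replicates. Their mean GC content was 54.4 ± 6.99% (SD over 1182 regions), against 50.1 ± 6.87% over the other regions open in both controls and 49.8 ± 7.61% over all merged regions. The 982 regions with the opposite pattern, open in both TPA and neither control library, averaged 46 ± 6.6%. CpG dinucleotides were also less depleted, with a median ratio of observed to expected CpG of 0.555 against 0.4 in the other regions open in both controls and 0.218 in the TPA-only regions. Widths were alike, with medians of 2815 and 2850 bp for the control-only and the other regions open in both controls.

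The share of regions that were control-only was higher at higher GC content. The regions open in both controls were divided into 5 GC classes of equal size. Of them, 3.61% were control-only in GC class 1, the lowest (22.7 to 44.3%), 5.78% in class 3 and 15.3% in class 5, the highest (56.6 to 76.7%). The same order held at promoters, from 2.65% to 15.4%, and away from promoters, from 3.74% to 14.9%. In position class 4 it went from 8.28% to 40.3%.

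A tilt with GC content also ran through regions that no library lacked. Over the 11246 regions open in all 6 libraries, none of them control-only, the positions were counted anew among these regions, and GC class 5 had medians of 4668 and 4976 in the controls, 5595 and 6389 with TPA and 4435 and 4358 with ZnCl2. In GC class 1 the order was turned, with 7232 and 7178 in the controls, 6095 and 5702 with TPA and 8404 and 7886 with ZnCl2. Among these regions, both TPA libraries thus placed GC class 5 later and GC class 1 earlier than both controls. The part of this tilt in the choice of the control-only regions was not tested.

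Libraries of 1 condition differed in GC content as well. Regions kept in only 1 of the 2 ZnCl2 libraries averaged 52.1% and 47.7% for replicates 1 and 2, those in only 1 control library 48.9% and 48.2%, and those in only 1 TPA library 49.5% and 46.6%. Compared by replicate number, regions open in the control and not in the TPA library averaged 51.9% and 52.3%, and those open in the TPA and not in the control library 46.9% and 45.7%. The direction was the same for both numbers, and the gap of each was wider than that between libraries of 1 condition. These sets rest on the calls that the rule used. Control-only regions made up 39.2% and 37.2% of the sets open in the control and not in the TPA library. The likeness of the 2 numbers is therefore no independent support.

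**Figure D2:**
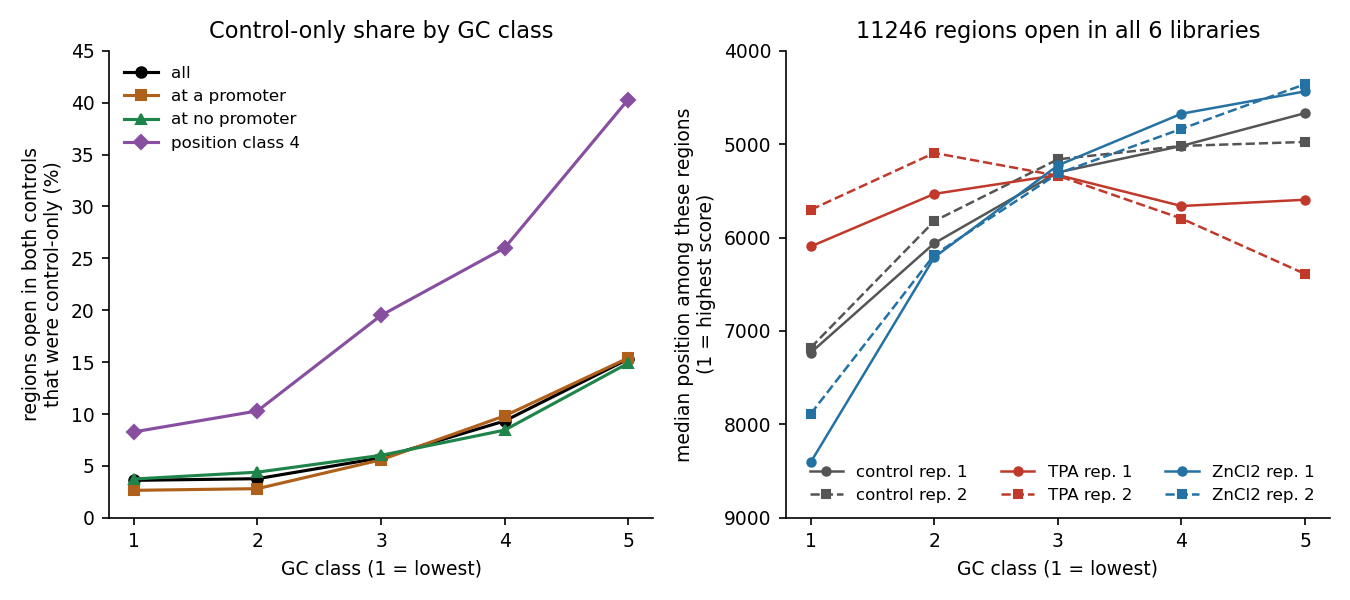
Left, percentage of the regions open in both controls that were control-only (vertical axis) in each of 5 GC classes (horizontal axis, 1 is the lowest), for all regions, those at a promoter, those at no promoter and those in position class 4; over all regions it is 3.61% in class 1 and 15.3% in class 5. Right, median position (vertical axis, 1 is the highest score, counted among these regions alone) of the 11246 regions open in all 6 libraries in each GC class, with a line per library; the TPA lines lie above the others in class 1 and below them in class 5.

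Promoters made up most of the regions. A promoter, taken as the 1000 bp before the start site of a GENCODE gene, was overlapped by 685 control-only regions, or 58% (exact binomial 95% interval 55.1 to 60.8%, for counting error only). This compared with 47.9% of the other regions open in both controls, 36.6% of all merged regions and 11.7% of the TPA-only regions. The promoter belonged to a protein-coding gene at 634 of them. When every region of each list was used in place of the equal number, the order turned: 32.6% of the 347 regions then open in both controls and no TPA list overlapped a promoter, against 39.1% of the others open in both controls. With the 10000 highest scoring regions per library it was 72.5% against 60.2%.

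Outside promoters, 222 regions overlapped an exon, 122 lay in introns and 153 between genes. Introns held 10.3% of the control-only regions and 17.1% of the other regions open in both controls, and exons 18.8% and 15.5%. Regions over the promoters of at least 2 protein-coding genes were less frequent among promoter regions, at 9.2% of the control-only and 17.5% of the others. The 497 regions away from promoters had a mean GC content of 51.2 ± 7.6%, against 47.4 ± 6.71% for their counterparts among the other regions open in both controls.

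The regions were spread over all 23 chromosomes examined. The X chromosome had the highest share, where 29 of the 179 regions open in both controls (16.2%) were control-only, followed by chromosome 22 with 12.8%, 14 with 10.5% and 15 with 10.3%. Chromosome 5 had the lowest share, 4.43%. Some regions lie in sequence that short reads cannot place with certainty. Per region, at least 1 of 10 evenly spaced pieces of 50 bp occurred again in the genome in 22.3% of the control-only regions and 27% of the other regions open in both controls.

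The promoter sequences differed in the short motifs they held. RefSeq start-site windows of 300 bases, of which 50 follow the start, overlapped a control-only region in 1034 cases and another region open in both controls in 11188, and a gene can have several. A CCAAT box (CCAAT on either strand) stood in 15.5% of the first and 39.9% of the second, beside 34.6% of all 34961 windows. A GC box was the more frequent in control-only regions, at 78.3% against 71.8%, beside 45% of all windows.

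The lower share of CCAAT was also seen within classes of position or of the region's GC content, taken 1 at a time. The GC content of the windows themselves was not matched. In position classes 3 and 4, 15.5% of the windows in control-only regions and 32.6% of those in other regions held it. In GC class 5 the shares were 14.3% and 38.2%. Motifs of other general promoter factors were also less frequent, among them the ETS motif CCGGAAGT at 3.48% against 8.71%, the NRF1 motif GCGCATGC at 2.13% against 6.19%, and the CRE TGACGTCA, bound by CREB, at 0.58% against 3.32%. All windows together held these at 4.14%, 3.06% and 1.85%.

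The core of the metal response element, which the zinc sensor MTF1 binds (TGCACNC or TGCGCNC), was found in 41.6% of the windows in control-only regions, 39.3% of those in other regions open in both controls and 29.6% of all windows. In the central 300 bp of the regions a core of the CTCF motif (AGNGGGCGC) was at 6.18% of control-only regions, 2.71% of the others open in both controls and 2.58% of all merged regions. It overlaps the GC box in letters, and within GC class 5 it was at 9% and 5.65%. In the RefSeq windows it was at 8.41% and 6.55%, and at 8.3% and 8.35% within GC class 5. The AP-1 motif (TGACTCA or TGAGTCA) was at 8.88%, 14% and 17.8% of the central windows of these 3 sets. Between control-only and other regions open in both controls the gap was narrower at like GC content. It was 2.51% against 4.3% in GC class 5 and 5.82% against 7.33% in GC class 4. A match to letters is no evidence of binding.

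Among regions without repeated pieces, the coding promoters with the highest control positions stood far down the TPA lists. RAB43 (chr3:129119471-129123740), a small GTPase of membrane traffic, stood at positions 1631 and 2484 in the controls and at 27345 and 19961 with TPA. It was at 2851 and 1391 with ZnCl2, on either side of the controls. SYT7 (chr11:61580011-61582200), a Ca2+ sensor of exocytosis, stood at 1039 and 2932 in the controls, 23378 and 22035 with TPA and 2686 and 5933 with ZnCl2. In both genes the control and ZnCl2 positions overlapped and the TPA positions lay far from them.

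CPOX (chr3:98592149-98594658), an enzyme of heme synthesis, was at 3904 and 3843 in the controls, 24107 and 24095 with TPA and 2755 and 2663 with ZnCl2. Replicates of each condition were near each other, and both ZnCl2 positions were earlier than both control positions. FAM20C (chr7:190591-196060), a kinase of secreted proteins, was at 3438 and 3892 in the controls, 24840 and 19381 with TPA and 4286 and 4536 with ZnCl2. Its second TPA position was less than 1000 places past the limit. The other regions named by the same rule covered FASTK and TMUB1, RTKN, GFER and NOXO1, ITPK1, and KLF3, with control positions from 1262 to 4892 and TPA positions from 19411 to 27361.

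MACIR (chr5:103257970-103260659) was the region with the highest control positions among those without any TPA call and without repeated sequence. It stood at 4249 and 4169 in the controls and at 2616 and 1600 with ZnCl2. KCMF1 (chr2:84968841-84973000), a ubiquitin ligase, was at 9850 and 10755 in the controls, 7047 and 6118 with ZnCl2, and had no TPA call. ABRAXAS2 (chr10:124801201-124802970), a scaffold of a deubiquitinating complex, was at 12861 and 12078 in the controls and later with ZnCl2, at 13585 and 17836. The rest of the 8 so named lay in SNX30, COLGALT1, CEP170B and EMILIN1, with exon sequence in each, and 15645 bp from the start of RTN4R, at control positions from 9788 to 14485.

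The 51 regions without a TPA call differed from the other control-only regions. They overlapped a promoter in 33.3% of cases, against 59% of the 1025 with a call in both TPA lists. Repeated pieces were found in 47.1% against 20.2%. Their mean GC content, 55.7 ± 8.01%, lay near the 54.1 ± 6.94% of those with calls in both TPA lists.

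Away from promoters and among regions without repeated pieces, the one with the highest control positions lay in PAK1 (chr11:77410791-77412630), a kinase of cell shape and motility, at 6096 and 4898 in the controls, 27501 and 21414 with TPA and 4253 and 4295 with ZnCl2. Another lay between genes 28743 bp from the start of RPL3 (chr22:39289591-39293700), at 3990 and 6562, 20720 and 30986, and 3662 and 2401 in the same order of conditions. In both, the ZnCl2 libraries were ahead of both controls. A region over exons of FOXH1 and KIFC2 was at 6862 and 7628 in the controls, 20517 and 27487 with TPA and 903 and 1785 with ZnCl2. Of those remaining, 1 lay in MREG and PECR and another 11265 bp from the start of SP8.

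**Figure D3:**
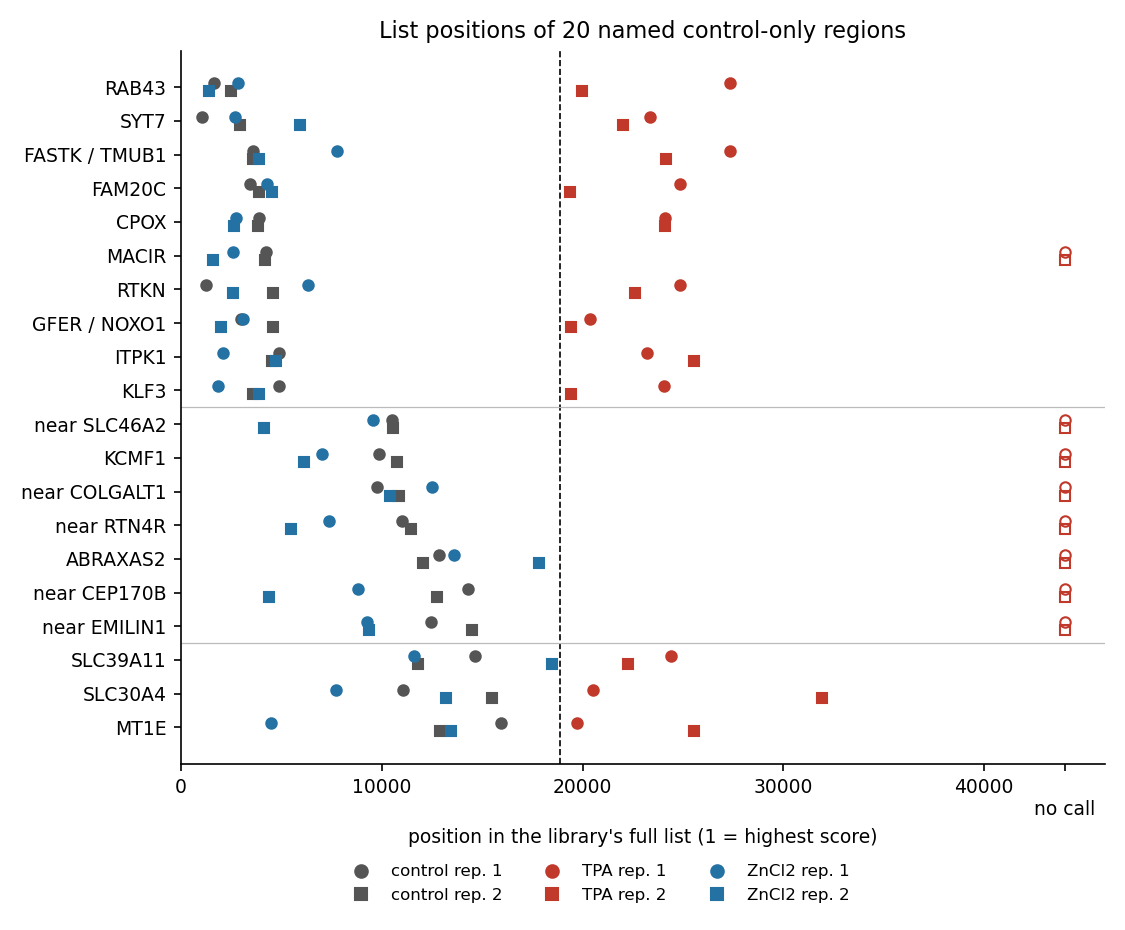
List position (horizontal axis, 1 is the highest score) of 20 named control-only regions in the 6 libraries, with circles for replicate 1 and squares for replicate 2 and open symbols for no call. The upper block holds the 10 coding promoters with the highest control positions among regions without repeated pieces, the middle block regions without a TPA call, and the lower block genes of Zn2+ handling; the dashed line is the last position kept, and the TPA points lie to its right by construction.

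Genes of Zn2+ handling formed short lists. Of the 3 metallothionein genes with a promoter open in both controls 1 was control-only (33.3%), of the 6 SLC30 exporters 1 (16.7%), and of the 9 SLC39 importers 1 (11.1%). Over all protein-coding genes the share was 698 of 8337, or 8.37%, and lists of this size cannot be set apart from it. MT1E (chr16:56624681-56630380), a metallothionein that binds Zn2+, was at 15940 and 12884 in the controls, 19715 and 25547 with TPA and 4509 and 13471 with ZnCl2. Its first TPA position was less than 1000 places past the limit, and the ZnCl2 libraries disagreed, with 1 inside the control range.

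SLC30A4 (chr15:45521331-45523640), a zinc exporter, was at 11068 and 15490 in the controls, 20538 and 31899 with TPA and 7716 and 13188 with ZnCl2. SLC39A11 (chr17:73091746-73093500), an importer of the ZIP family, was at 14629 and 11803, 24409 and 22252, and 11590 and 18468 in the same order. At SLC30A4 the 2 libraries of each condition lay far apart, and at SLC39A11 those of ZnCl2 did. In both genes the ZnCl2 values overlapped those of the controls.

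Factors with zinc fingers were counted next. Of 14 KLF and SP genes with a promoter open in both controls, 3 were control-only (21.4%, beside 8.37% of all coding genes). This list is too short to set apart from that share. KLF3 (chr4:38662991-38666190), a transcriptional repressor of the family, was at 4892 and 3615 in the controls, 24054 and 19423 with TPA and 1869 and 3907 with ZnCl2. KLF11, a TGF-beta inducible member of the family, and KLF2, an immediate early member, lay lower in the controls, with positions from 10083 to 18475. Of 253 genes named ZNF, ZKSCAN or ZSCAN, 28 were control-only (11.1%, beside 8.37% of all coding genes). The one highest in the controls, shared by ZNF383 and ZNF585B, was at 1754 and 9784 in the controls and 19906 and 30999 with TPA.

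The YAP and TEAD pathway, which couples cell shape to growth, had 3 of 11, a list too short to set apart from the 8.37% of all coding genes. TEAD4 (chr12:2957851-2961980), a DNA-binding partner of YAP, was at 4588 and 8217 in the controls, 22487 and 24802 with TPA and 6161 and 6624 with ZnCl2. AXL (chr19:41218101-41221460), a receptor kinase and YAP target, was at 14530 and 13908, 34695 and 38647, and 9055 and 15119 in the same order. Its TPA positions were among the latest of the named regions. TEAD3 was near the limit in the controls, at 16498 and 16536.

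Of 21 p53 target genes with a promoter open in both controls, 2 had a control-only region over it (9.52%, beside 8.37% of all coding genes). CDKN1A (chr6:36675481-36681950), the cell cycle inhibitor p21, was at 15084 and 12878 in the controls and at 19697 and 24796 with TPA. With ZnCl2 it was at 9744 and 11622. The first TPA position of CDKN1A lay close to the last kept position, 18887. The paper judged by eye that the p53 site it chose at CDKN1A seemed slightly more open with TPA, which is the other direction. Accessibility at that site was not tested here. A region at TIGAR (chr12:4307531-4309330) had no TPA call and covers a GENCODE start site that lies upstream of the gene's RefSeq window, which is outside the region. Positions there were 14202 and 16745 in the controls.

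Lists of housekeeping and lineage genes lay on both sides of the 8.37% of all coding genes. Mitochondrial ribosomal proteins had 5 of 54 (9.26%), and oxidative phosphorylation 1 of 64, COX4I1. The prefixes RPL and RPS gave 2 of 64, of which RPL29 is a ribosomal protein and RPS6KA3 a kinase that the prefix also catches. Replication-dependent histones had 1 of 40, H2AC18, in a region with repeated sequence, the proteasome 1 of 32, protocadherins 1 of 3 and immediate early genes 1 of 22, KLF2. Of the developmental families 2 of 18 (11.1%) had one, SOX15 and GATA6. No control-only region overlapped the promoters of 22 replication genes, 13 TGF-beta genes, 10 heat shock genes, 9 AP-1 genes and 9 CTCF and cohesin genes. Nor did any overlap those of 8 NRF2 genes, 7 hemidesmosome genes, 6 epithelial factors, 5 DNA methylation genes, 5 HOX genes and 2 keratins. All of these promoters were open in both controls. The counts cover only the 1000 bp before the GENCODE start site used for a gene, and start sites further inside it were not examined. Control-only regions did lie inside SMAD3 and GATA3, over untranslated exon sequence and away from the start site used. The GATA3 region was itself counted as a promoter region, though not through the start site used for GATA3. The lists without a control-only region are therefore known to lack one only at the start sites used.

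The basal mammary character of the cells was checked in the full lists. Of 10 basal epithelial genes, 7 and 8 had a call over the promoter in the controls, 9 and 9 with TPA and 9 and 3 with ZnCl2, whose second list is the shortest, while TP63 had none in any library at the start site of the gene. Of 8 genes of other cell types, 1 had a call, GFAP in ZnCl2 replicate 1.

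The ZnCl2 calls, which the rule did not use, were compared last. Both ZnCl2 libraries were open at 901 control-only regions, 76.2% (exact binomial 95% interval 73.7 to 78.6%, for counting error only), beside 83.4% of all regions open in both controls. Neither was open at 112 (9.48%, beside 6.13%), ZnCl2 replicate 1 alone at 95 and ZnCl2 replicate 2 alone at 74. The ZnCl2 and TPA libraries are set against the same 2 controls, so the comparisons are not independent.

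The lower share went with the low control positions of these regions. In position class 3, 92.8% of the 333 control-only regions and 82.3% of the 3581 others were open in both ZnCl2 libraries, and in class 4 65.5% of 730 and 56.7% of 3184. Split by GC content, this order did not hold throughout. In position class 4, the control-only regions were at 20.4% against 37.8% of the others in GC class 1, 73.2% against 64.8% in GC class 3 and 77.4% against 77.6% in GC class 5. In position class 3 they were at 62.5% of 8 regions against 63% in GC class 1, 91.5% against 88% in GC class 3 and 91.2% against 95.5% in GC class 5. In position class 2 the shares were 96.9% and 94.9%, and in class 1, which held 22 control-only regions, control-only regions were the lower, with 90.9% and 97.2%.

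The list positions were compared as well. Both ZnCl2 libraries placed 376 control-only regions (31.8%) ahead of both controls, and 17.8% of the other regions open in both controls. They placed 18.4% and 29.9% after both controls, where a region without a ZnCl2 call was counted as last. ZnCl2 replicate 2, the shortest list, had no call at 17.5% of the control-only regions and 11% of the others. Part of these shares is therefore a missing call and not a list position. Within position class 4 the shares ahead were 31.8% and 16.8%, and by GC content they were 6.12% and 8.85% in GC class 1, 36.6% and 18.9% in GC class 3 and 40% and 33.2% in GC class 5. GC content moved with the ZnCl2 calls. The 901 regions open in both ZnCl2 libraries averaged 55.7 ± 5.92% and the 112 open in neither 47.5 ± 8.1%. The same was seen beyond the control-only regions. Of all regions open in both controls, 62.5% in GC class 1 and 92.3% in GC class 5 were open in both ZnCl2 libraries. The 960 open in both controls and neither ZnCl2 library averaged 43.8 ± 6.17%.

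**Figure D4:**
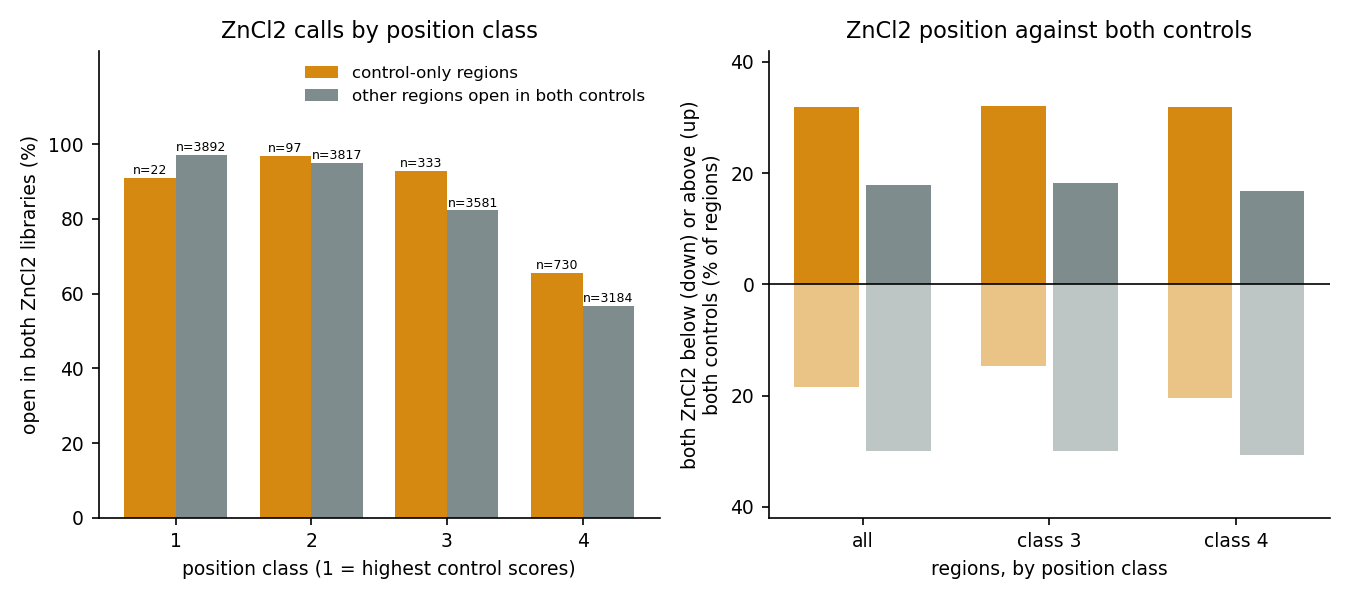
Left, percentage of regions open in both ZnCl2 libraries (vertical axis) by position class (horizontal axis, class 1 holds the highest scores), for control-only regions and other regions open in both controls, with the number of regions above each bar; in class 4 the bars stand at 65.5% and 56.7%. Right, percentage of regions that both ZnCl2 libraries placed ahead of both controls (solid bars, upward) or after both (pale bars, downward), over all regions and in position classes 3 and 4, in the same colors. A region without a ZnCl2 call was counted as last.

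The regions with and without ZnCl2 calls also differed in where they lay. Promoters made up 63.3% of the regions open in both ZnCl2 libraries, 50.3% of the 169 open in 1 and 26.8% of the 112 open in neither. Introns made up 6.22%, 18.9% and 30.4%. Of the 685 promoter regions 83.2% were open in both ZnCl2 libraries, and of the 497 others 66.6%. The corresponding shares of the other regions open in both controls were 93.2% and 75.5%.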

How the data were processed

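ATAC-seq libraries of MCF10A cells were examined from lists of open regions, 1 per library, with 2 libraries in each of 3 groups assigned from the sample labels. Per the study's methods, reads were cleaned of adapters by the authors (BBDuk) and aligned to hg38 by HISAT2 2.1.0, with SAMtools 1.8 and FastQC 0.11.8 (versions from the submitters' processing notes), and HMMRATAC was run on 1 library at a time. Its version is not given in the sources used here. Column 5 of the deposited lists is a score of whole numbers given by the authors' caller; the kind of score is not stated, so it was used only to order regions within a library. Blacklisted regions were removed by the authors in a later step and remain in these lists. The lists hold no read counts, so sequencing depth is unknown. On chromosomes 1 to 22 and X they held 25025 and 44637 regions (control), 35900 and 41374 (TPA) and 38055 and 18883 (ZnCl2); all 18883 of ZnCl2 replicate 2 were kept, 4 fewer than the 18887 of the others. The lowest kept scores were between 30 and 60.

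Genes were those of GENCODE release 44 with an entry in RefSeq, 40530 of 62700. Of the 698 coding genes with a promoter in a member, 555 had a RefSeq start-site window in the table used and 511 had one inside a member. RefSeq windows of KLF3, MT1E, SYT7 and TEAD4 are not in that table. Each set of regions was described by counts, shares, means and medians; no test was made, because the rule used the control and TPA calls, regions are not replicates and the ZnCl2 comparison shares the controls. Genes were named by rule: the 10 coding-promoter and 6 other members with the highest position in their lower control library, the 8 such members without a TPA call, all without repeated pieces, and members at promoters of listed genes. The values of 1 region so named are not reported here. The members and lists were chosen with earlier results of these data known. Alternatives covered list length, merging, overlap, ties, repeats, promoter and GC windows, left-out libraries and a replicate block. Merging, membership and motif search were tested on made lists with known answers. Tools were bedtools 2.31.1, samtools 1.23.1 and, under Python 3.11.15, pandas 2.3.3, pysam 0.24.0, NumPy 2.4.6, Matplotlib 3.10.9 and SciPy 1.17.1.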

Additional observations from a re-analysis of the deposited data

How the results depend on the processing

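No test was made, so each summary was compared by size: a count was taken as moved when it changed by more than 1.5 times, a share when it left its exact binomial 95% interval and the mean GC content when it left its 95% interval (normal approximation over regions). Of 66 alternatives over 5 summaries, 46 moved and 20 did not; the causes were not tested. With the upper 50% of each list there were 458 regions, 61.6% at promoters, mean GC content 56.1%, 50.7% open in both ZnCl2 libraries and 6.33% without a call in either full TPA list. With all regions of each list there were 347 regions, 32.6% at promoters, 41.8% open in both ZnCl2 libraries and, by construction, 100% without a TPA call. With the 10000 highest scoring regions the promoter share was 72.5%, GC content 55.1% and the share without a TPA call 1.66%. With equal covered bases there were 513 regions, 68.6% at promoters, GC content 55.2% and 81.3% open in both ZnCl2 libraries. Merging only control and TPA lists gave GC content 55.3%. Requiring calls over 50% of the region gave GC content 53.4%, 67% open in both ZnCl2 libraries and 1.73% without a TPA call. Regions without repeated pieces had 61.8% at promoters and 2.94% without a TPA call. The central 300 bp averaged 61.8% GC, and calls anywhere in the full ZnCl2 lists covered 82.1%. Leaving out 1 library at a time gave 1837 to 2267 regions, 42.2 to 54.4% at promoters, GC content 52.5 to 53.9%, 54.9 to 84.3% open in the ZnCl2 libraries and 5.82 to 16.3% without a TPA call, the last highest without control replicate 1. A left-out TPA or ZnCl2 library was also left out of its share, which then counts the remaining library alone. With the replicate block, which compares control and TPA libraries of the same number and averages the 2 numbers, there were 3098 regions; the numbers pair nothing that the labels state. In the lists of equal length, the upper 50%, the 10000 highest, equal covered bases and all regions, mean GC content of the control-only regions (54.2 to 56.1%) was above that of the other regions open in both controls (49.4 to 51.2%). The unknown depth and the score's unknown kind limit every list position, and positions near the limit depend on ties.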
